A study of Mus musculus with 6 samples.

Results

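The vascular endothelial growth factor (VEGF) genes examined here were 4 ligands (Vegfa, Vegfb, Vegfc and Pgf) and 3 receptor tyrosine kinases (Flt1, Kdr and Flt4). They were picked out by mouse gene symbol, with no value entering the rule, and make up 7 of the 43346 Ensembl genes in the tables. Earlier results of these data were known when they were chosen. All 7 had enough counts to enter the test of 15747 genes. RNA-seq was done on retinal ganglion cells (RGCs), the neurons whose axons form the optic nerve, purified from mice with antibody to CD90.1 (Thy1) and grown as bulk cultures with forskolin, BDNF and CNTF. The protocols place the source animals at postnatal day 2 for the general culture and at embryonic day 18 for the sequenced wells, so the age is uncertain. Cultures received an adeno-associated virus (AAV2) 4 h after plating at about 100000 vector genomes per cell, and RNA was taken 72 h after plating. The 3 groups were an EGFP control virus, a virus with Sox11 and a virus with Sox11 K91A, in which lysine 91 of this transcription factor is changed to alanine so that the SUMO modifier cannot be attached there. Each group had 2 replicate libraries. Nothing in the descriptions says that the replicates were separate cultures, so p-values measure the spread between these libraries. That spread may be technical where replicates shared their cells. The replicates of control and of Sox11 differed in sex-linked transcripts (below), and those of Sox11 K91A were close in them.

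VEGF ligands are secreted dimers that bind receptor tyrosine kinases best known from endothelial cells, where they drive the growth, survival and permeability of blood and lymphatic vessels. VEGF-A binds FLT1 (VEGFR1) and KDR (VEGFR2), of which KDR carries most of the signal, while VEGF-B and placental growth factor (PGF) bind FLT1, and VEGF-C binds FLT4 (VEGFR3) and KDR. In the retina VEGF-A made by neurons and glia guides vessel growth and rises when oxygen is low, and both VEGF-A and VEGF-B are known to act on neurons as survival factors.

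In GRCm38 (GENCODE M21) Vegfa lies at chr17:46016993-46032369 (minus strand), Vegfb at chr19:6982473-6987651 (minus), Vegfc at chr8:54077606-54187096 (plus), Pgf at chr12:85166635-85177790 (minus), Flt1 at chr5:147561604-147726011 (minus), Kdr at chr5:75932827-75978458 (minus) and Flt4 at chr11:49609263-49652739 (plus). No other annotated gene overlaps any of them, and each had a whole-number expected count in all 6 libraries, as is the case where reads are not divided among similar genes. The bases just before the start of Vegfa and Vegfb are shown because these are the members whose levels changed (below) and the virus carries a DNA-binding factor. Each run holds the 250 bases upstream of the RefSeq start on GRCm38.p6, 5′ to 3′ on the minus strand, and capitals mark matches on either strand to the hypoxia response core ACGTG or GCGTG, the short motif at the heart of sites for hypoxia-inducible factors. The window of Vegfa at its first start is chr17:46032378-46032627 and that of Vegfb is chr19:6987652-6987901.
Vegfa: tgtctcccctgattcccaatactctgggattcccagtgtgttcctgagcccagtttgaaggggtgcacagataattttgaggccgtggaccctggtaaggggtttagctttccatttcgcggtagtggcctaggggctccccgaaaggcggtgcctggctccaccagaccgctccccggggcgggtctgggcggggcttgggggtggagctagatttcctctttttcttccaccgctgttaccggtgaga
Vegfb: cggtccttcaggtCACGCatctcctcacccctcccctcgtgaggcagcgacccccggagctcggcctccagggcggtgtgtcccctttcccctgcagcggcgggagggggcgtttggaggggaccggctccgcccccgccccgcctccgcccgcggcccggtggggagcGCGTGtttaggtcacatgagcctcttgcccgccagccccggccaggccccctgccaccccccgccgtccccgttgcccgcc
The Vegfa window printed here held no match to the hypoxia core. A second RefSeq window of Vegfa, before a start inside the gene (chr17:46025164-46025413), held 2, with GCGTG on the forward strand 218 bases and ACGTG on the reverse strand 211 bases before that start. The Vegfb window held 2, both GCGTG, with the forward match starting 81 bases and the reverse match 237 bases before the gene start, and 38.6% of the 32841 windows of the same length in the table hold at least 1 match. RefSeq gave 9 windows for the 7 genes. None of the 9 held the SOX core in the form ACAAAG or ACAATG on either strand, against 25.2% of all windows. The Vegfb window had a GC content of 76.4% and the 2 Vegfa windows 59.2% and 59.6%, against a median of 52.4%. All 9 windows lay above that median, while the SOX core is rich in A and T. The hypoxia core GCGTG is rich in G and C. Neither the 25.2% nor the 38.6% share was matched for GC content. These matches describe letters in short windows, and no binding was measured.

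The libraries held between 27521982 and 37061718 expected counts. Sox11 itself, the check of the labels, stood at 234 and 332 CPM (counts scaled to library size) in the control libraries, 9178 and 14591 with Sox11, and 11971 and 7026 with Sox11 K91A. Transcripts of the virus and of the chromosomal gene were counted together, and the mutant cannot be told from the wild-type gene in these counts. Against control, 1568 genes rose and 1603 fell with Sox11, and 915 rose and 757 fell with Sox11 K91A (limma-voom, adjusted p under 0.05 and a fold change over 1.2). Control replicate 2 and Sox11 replicate 2 stood apart in sex-linked transcripts, with 3697 and 8413 counts of Xist against 11191 to 16303 in the other 4 libraries, and 3016 and 3298 counts from 4 Y-linked genes against 1094 to 1537. Without this pair of libraries, control and Sox11 each keep replicate 1 alone, and the spread comes only from the Sox11 K91A libraries. The 2 virus comparisons share the control libraries and are therefore not independent of each other.

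In the control cultures the ligands were far more abundant than the receptors, compared as TPM values, which scale counts by transcript length and library. Vegfb was highest at 135.61 ± 1.50 TPM (SD, n = 2), followed by Vegfa at 43.1 ± 3.49 and Vegfc at 3.10 ± 0.0071 TPM. Pgf at 1.30 ± 0.42 TPM and Kdr at 1.22 ± 0.33 TPM came next and overlapped in their library values. Flt4 was listed at 0.31 TPM in both control libraries, and Flt1 was lowest at 0.27 and 0.08 TPM. The 4 ligands summed to 179.86 and 186.33 TPM in the control libraries and the 3 receptors to 2.03 and 1.38 TPM.

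Vegfb and Vegfa fell with both viruses, and no VEGF ligand or receptor rose past the test. Of the 7 genes, 2 were called lower and 0 higher with Sox11, where 10.2% of all tested genes were called lower and 9.96% higher. With Sox11 K91A again 2 were called lower and 0 higher, against 4.81% lower and 5.81% higher among all genes. The median log2 fold change of the 7 genes was -0.40 with Sox11 and -0.90 with Sox11 K91A, beside 0.0086 and 0.017 over all tested genes. In these bulk cultures fewer cells of a type and less RNA per cell cannot be told apart.

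**Figure D1:**
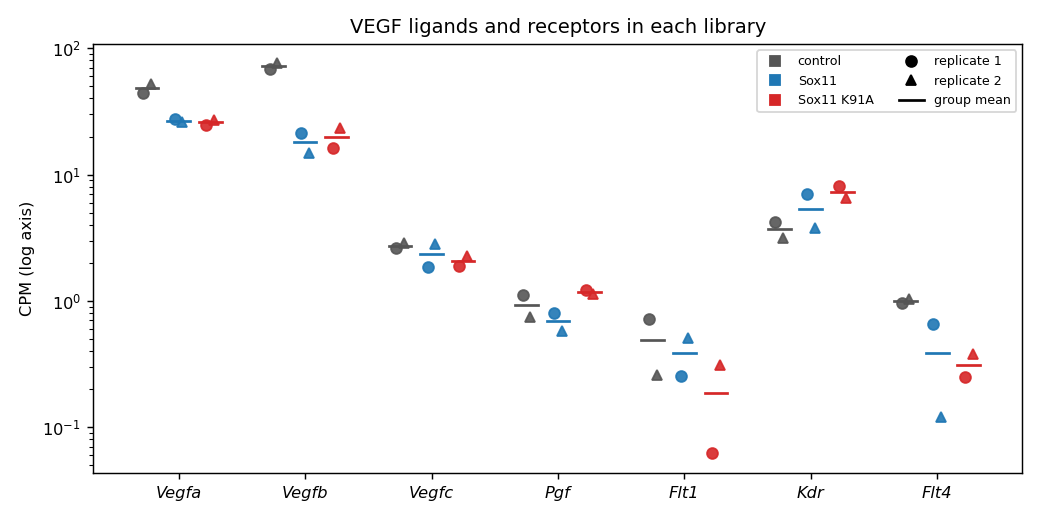
The level of each VEGF ligand and receptor in each library, in TMM-scaled CPM on a log axis, with the replicates as circles and triangles and the group mean as a bar. Vegfa and Vegfb in the control libraries (44.5 to 75.7 CPM) sit above the 4 libraries given Sox11 or Sox11 K91A (14.8 to 27.6 CPM), while the other 5 genes lie below 10 CPM throughout.

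Vegfb, a ligand of FLT1 linked to fatty acid handling and to neuronal survival, showed the larger fall. It had 69.0 and 75.7 CPM with the control virus, 21.4 and 14.8 CPM with Sox11, and 16.1 and 23.4 CPM with Sox11 K91A. Both control libraries were well above all 4 libraries given a Sox11 virus, and the 2 virus groups overlapped. The control mean was 72.4 ± 4.71 CPM, the Sox11 mean 18.1 ± 4.71 and the Sox11 K91A mean 19.8 ± 5.17 (SD, n = 2 each). The log2 fold change was -2.04 with Sox11 (SE 0.24, 95% interval -2.60 to -1.47, limma-voom adjusted p = 0.0112), a level 4.10-fold lower than control. With Sox11 K91A it was -1.90 (SE 0.23, interval -2.45 to -1.35, adjusted p = 0.0140), or 3.74-fold lower. The fall exceeded the spread between replicates in both comparisons. Per transcript length Vegfb went from 134.55 and 136.67 TPM in control to 43.05 and 29.75 with Sox11 and 31.68 and 46.22 with Sox11 K91A, and its weighted transcript length stayed between 1213 and 1232 bases.

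Vegfa, the main angiogenic ligand and a classical target of hypoxia-inducible factors, fell by less. Its levels were 44.5 and 51.7 CPM in control, 27.6 and 25.9 with Sox11, and 24.5 and 27.2 with Sox11 K91A. Again both control libraries lay above all others, and the virus groups overlapped. The means were 48.1 ± 5.09 CPM, 26.7 ± 1.21 and 25.9 ± 1.89 (SD, n = 2 each). The log2 fold change was -0.85 with Sox11 (SE 0.15, interval -1.21 to -0.49, limma-voom adjusted p = 0.0173) and -0.90 with Sox11 K91A (SE 0.15, interval -1.26 to -0.53, adjusted p = 0.0233), corresponding to 1.80-fold and 1.86-fold lower levels.

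The length that RSEM gives a gene is the mean over its transcripts weighted by their estimated abundance, so it moves when the mix of splice forms moves. For Vegfa, a gene with several splice forms, it was 2373 and 2265 bases in control, 2013 and 2130 with Sox11, and 2236 and 2090 with Sox11 K91A. The control libraries thus had the longest values, without a test of the difference. In TPM, which divides by this length, Vegfa was 40.62 and 45.56 in control, 30.72 and 27.42 with Sox11, and 23.83 and 28.32 with Sox11 K91A. On the log2(TPM + 1) scale the fold change was -0.55 with Sox11 (limma-trend adjusted p = 0.0698) and -0.71 with Sox11 K91A (adjusted p = 0.0580), so the direction held and the call did not.

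The calls for Vegfa and Vegfb rested on few libraries. Without the pair of libraries low in Xist, control and Sox11 each kept replicate 1 alone. The log2 fold change with Sox11 was then -0.69 for Vegfa and -1.69 for Vegfb, and with Sox11 K91A it was -0.79 and -1.84. Leaving out Sox11 replicate 2 gave adjusted p = 0.119 for Vegfa and 0.0745 for Vegfb in the Sox11 comparison by limma-voom, where no gene of the whole table was called. For Sox11 K91A, leaving out control replicate 2 gave adjusted p = 0.0590 and 0.0571 for Vegfa and Vegfb, leaving out Sox11 K91A replicate 1 gave 0.277 and 0.117, and leaving out Sox11 K91A replicate 2 gave 0.0944 and 0.0351. Over all 22 alternative settings the log2 fold change of Vegfb stayed between -2.29 and -1.69 with Sox11 and between -2.17 and -1.62 with Sox11 K91A. That of Vegfa stayed between -0.95 and -0.55 and between -1.004 and -0.71.

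**Figure D2:**
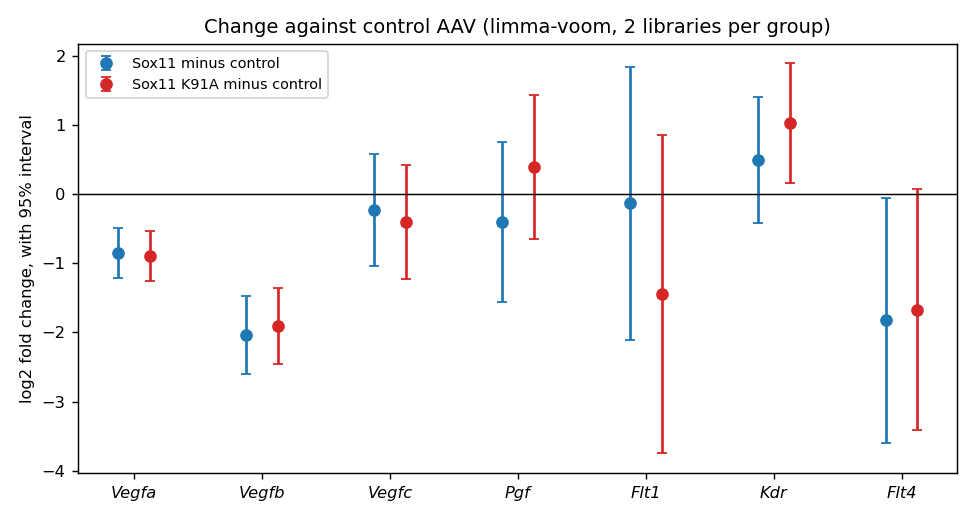
The log2 fold change of each VEGF ligand and receptor against control virus, with points at the limma-voom estimate and bars for its 95% interval, for Sox11 (blue) and Sox11 K91A (red). Vegfa and Vegfb lie below 0 with narrow intervals in both comparisons, and the intervals of Flt1 and Flt4 are the widest, at 2 to 40 counts per library.

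The makeup of the ligand pool shifted with these falls. The summed ligand level went from 179.86 and 186.33 TPM in control to 77.18 and 61.48 TPM with Sox11 and 59.5 and 78.82 TPM with Sox11 K91A. Vegfb made up 74.8% and 73.3% of the ligand TPM in the control libraries, 55.8% and 48.4% with Sox11, and 53.2% and 58.6% with Sox11 K91A. The ratio of Vegfb to Vegfa in TPM was 3.31 and 3.00 in control, 1.40 and 1.08 with Sox11, and 1.33 and 1.63 with Sox11 K91A. For the sum, the share and the ratio, both control libraries lay above all 4 others, with no test made.

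**Figure D3:**
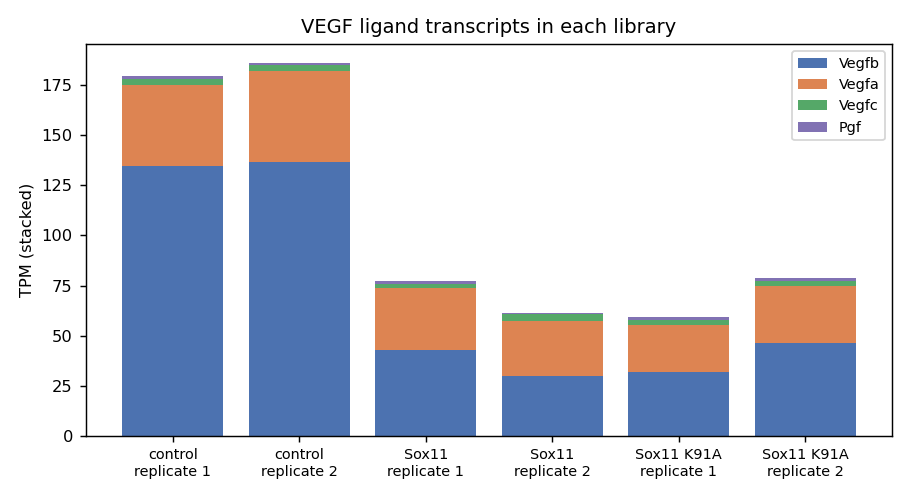
Stacked TPM of the 4 VEGF ligands in each library. The control bars reach 179.86 and 186.33 TPM, and the other 4 bars end between 59.5 and 78.82 TPM, with most of the difference in the Vegfb segment.

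Vegfc, the lymphatic growth factor, was low and did not pass the test. Its levels were 2.61 and 2.85 CPM in control, 1.86 and 2.84 with Sox11, and 1.89 and 2.26 with Sox11 K91A. The Sox11 libraries reached into the control range, while both Sox11 K91A libraries lay below it. The log2 fold changes were -0.24 (SE 0.34, limma-voom adjusted p = 0.652) and -0.41 (SE 0.35, adjusted p = 0.478).

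Pgf, which encodes placental growth factor, stood at 1.11 and 0.75 CPM in control, 0.80 and 0.57 with Sox11, and 1.21 and 1.13 with Sox11 K91A. These rest on 19 to 39 counts per library. Its log2 fold change was -0.40 with Sox11 (SE 0.49, limma-voom adjusted p = 0.581) and 0.39 with Sox11 K91A (SE 0.44, adjusted p = 0.602). Pgf was the only member whose Sox11 K91A libraries did not overlap the Sox11 libraries, with a log2 difference of 0.79 (SE 0.47, interval -0.33 to 1.91, adjusted p = 1.00).

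Kdr was the most abundant receptor transcript and the only member with both viruses' estimates above 0. It stood at 4.22 and 3.14 CPM in control, 7.02 and 3.74 with Sox11, and 8.13 and 6.52 with Sox11 K91A, on 118 to 262 counts per library. The Sox11 group overlapped control, and both Sox11 K91A libraries lay above it. The log2 fold change was 0.49 with Sox11 (SE 0.38, limma-voom adjusted p = 0.395) and 1.02 with Sox11 K91A (SE 0.36, interval 0.16 to 1.89), for which the unadjusted p was 0.0264 and the adjusted p was 0.114. Under the 22 alternatives the Sox11 K91A value ran from 0.66 to 1.22 and passed the test in none. Without the libraries low in Xist, which left control replicate 1 alone, it was 0.79.

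Flt4, the receptor of VEGF-C, had 27 and 40 counts in control, 18 and 4 with Sox11, and 8 and 11 with Sox11 K91A. Both control libraries lay above all others in CPM. The log2 fold changes of -1.82 (SE 0.75, limma-voom adjusted p = 0.123) and -1.67 (SE 0.74, adjusted p = 0.177) did not pass the test. The Sox11 value differed with the library left out. It was -0.60 without Sox11 replicate 2, -2.91 without Sox11 replicate 1, -1.78 without control replicate 2, and -0.55 without both libraries low in Xist. Each of these fits left control, Sox11 or both with 1 library.

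Flt1, the receptor of VEGF-B and PGF, was at the edge of detection. It had 20 and 10 counts in control, 7 and 17 with Sox11, and 2 and 9 with Sox11 K91A. The groups overlapped, and a change was not detectable at this depth, with log2 fold changes of -0.13 (SE 0.83, limma-voom adjusted p = 0.922) and -1.45 (SE 0.97, adjusted p = 0.361). The direction with Sox11 depended on the setting and was above 0 on the TPM scales.

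By range alone, 3 of the 7 genes had no overlap between the Sox11 and control libraries (Vegfa, Vegfb and Flt4, all lower), where 61.5% of all tested genes did not overlap. For Sox11 K91A, 6 of 7 did not overlap control, with Kdr and Pgf higher and Vegfa, Vegfb, Vegfc and Flt4 lower, against 61.9% of all genes.

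Sox11 K91A was also compared with Sox11, the comparison that addresses the SUMO site. No VEGF ligand or receptor was called, nor was any gene (0% of 15747 by limma-voom, with 108 at an unadjusted p under 0.05). edgeR called 0 genes and DESeq2 called 2. The log2 difference was -0.049 for Vegfa (95% interval -0.43 to 0.33) and 0.13 for Vegfb (interval -0.48 to 0.75). Kdr differed by 0.54 (interval -0.28 to 1.36), Vegfc by -0.17 (interval -1.03 to 0.69), Flt4 by 0.15 (interval -1.93 to 2.23) and Flt1 by -1.31 (interval -3.68 to 1.06). For Vegfc, Pgf and the receptors these intervals allow differences of more than 1 log2 unit in at least 1 direction, so a missing call does not show equal levels. Of the 7 genes, 1 (Pgf) had groups that did not overlap, against 26.6% of all genes.

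Signalling by these receptors also depends on co-receptors and on enzymes that process the ligands. Of 13 such genes, 11 were tested, with a median log2 fold change of -0.17 with Sox11 and -0.21 with Sox11 K91A. With Sox11, 2 fell and 0 rose, beside 10.2% called lower and 9.96% higher over all tested genes. The shares with Sox11 K91A were 4.81% and 5.81%. Plxnd1, a semaphorin receptor of developing vessels and neurons, fell from 36.8 and 23.0 CPM to 10.3 and 4.98 CPM (log2 fold change -2.04, limma-voom adjusted p = 0.0195). Adamts3, the protease that activates VEGF-C, fell from 8.02 and 8.09 CPM to 3.53 and 3.92 CPM (-1.11, adjusted p = 0.0271). With Sox11 K91A only Adamts3 was called (4.13 and 3.33 CPM, -1.11, adjusted p = 0.0378), while Plxnd1 stood at 10.2 and 13.2 CPM (-1.31, adjusted p = 0.0574). The neuropilin Nrp1, which binds both VEGF-A and class 3 semaphorins, had 141.0 and 169.5 CPM in control, 101.2 and 60.9 with Sox11, and 68.6 and 110.7 with Sox11 K91A. Its control libraries lay above all others, with log2 fold changes of -0.98 (adjusted p = 0.0637) and -0.83 (adjusted p = 0.125). Nrp2 gave -0.034 and -0.21. Furin, the convertase with the highest mean level of the list at 39.5 TPM, gave 0.17 and 0.15. Vegfd, the remaining mammalian VEGF ligand, and Ccbe1, the cofactor of Adamts3, were too low to test, at 2 to 13 and 0 to 4 counts per library.

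Of 41 genes of signal transduction below the receptors, 39 were tested, and their medians were near 0 (-0.085 with Sox11 and -0.049 with Sox11 K91A). With Sox11, 5 of the 39 rose and 6 fell, shares close to the 9.96% and 10.2% of all tested genes. The genes that rose were Nfatc4, a calcineurin-dependent transcription factor (log2 fold change 1.53, limma-voom adjusted p = 0.0128), the adaptor Nck2 (0.79), the PI3-kinase subunit Pik3ca (0.74), the phospholipase Plcg1 that docks on KDR (0.62) and focal adhesion kinase Ptk2 (0.57). The genes that fell were the small heat shock protein Hspb1 (-2.88, adjusted p = 0.0169), the sphingosine kinase Sphk1 (-2.36), the protein kinases C Prkcb (-1.46) and Prkca (-1.08), Hras (-0.95) and Map2k1 (-0.47). With Sox11 K91A, 3 rose (Nfatc4 1.49, Plcg1 0.71 and Nck2 0.65) and 4 fell (Hspb1 -2.23, Prkcb -1.13, Prkca -0.84 and Hras -0.72). Over all tested genes, 5.81% were called higher and 4.81% lower with Sox11 K91A. Hspb1 went from 29.3 and 24.1 CPM in control to 7.39 and 1.87 with Sox11 and 4.44 and 7.17 with Sox11 K91A. Nfatc4 went from 6.44 and 4.85 CPM to 14.9 and 16.9, and to 16.1 and 14.8. For both genes the control libraries did not overlap the others. The small GTPase Cdc42, the kinase Akt1 and the kinase Mapk3 had the highest levels of the list, and none passed the test in either comparison.

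**Figure D4:**
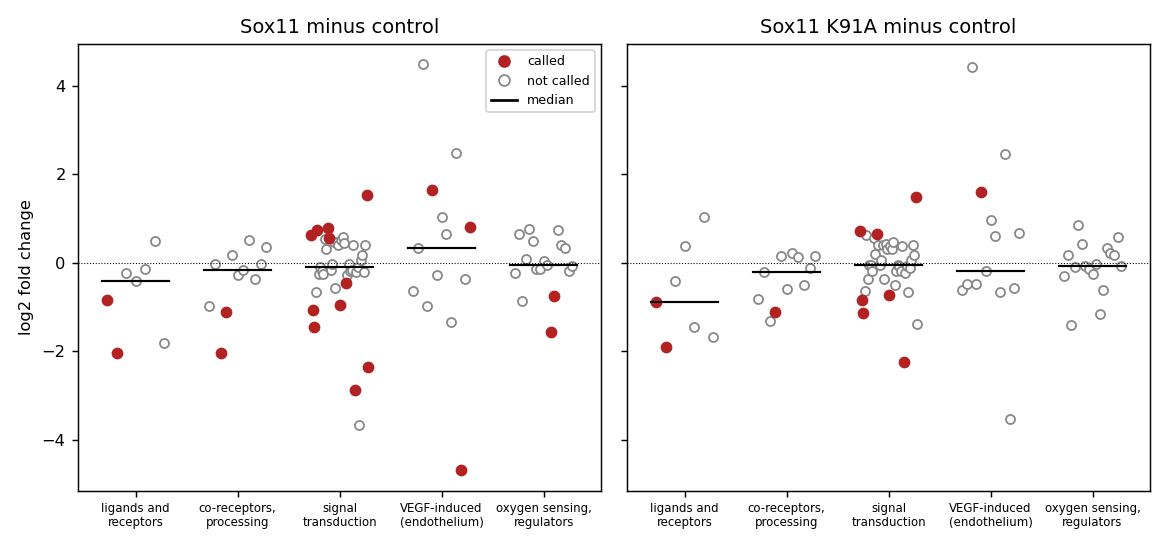
The log2 fold change against control of every tested gene of the VEGF ligand and receptor set and of 4 related gene lists, for Sox11 (left) and Sox11 K91A (right). Filled red points passed the test, open points did not, and bars mark the list medians, which lie between -0.90 and 0.34.

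Genes that VEGF induces in endothelium were mixed. Of 18 listed, 13 were tested, with medians of 0.34 with Sox11 and -0.19 with Sox11 K91A. With Sox11, 2 rose, the nuclear receptor Nr4a2 (log2 fold change 1.64, limma-voom adjusted p = 0.0187) and the ERK phosphatase Dusp6 (0.80, adjusted p = 0.0240), and 1 fell, the urokinase receptor Plaur (-4.70, adjusted p = 0.0437). Plaur had 50 and 134 counts in control, 0 and 15 with Sox11, and 8 and 5 with Sox11 K91A. With Sox11 K91A, Nr4a2 alone was called (1.61, adjusted p = 0.0282). These counts stand beside 9.96% higher and 10.2% lower over all tested genes with Sox11, and 5.81% and 4.81% with Sox11 K91A. Rcan1, the calcineurin inhibitor with the highest level in this list, gave -0.63 (adjusted p = 0.115) and -0.62 (adjusted p = 0.149).

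Among 17 genes of oxygen sensing and of the control of Vegfa, all tested, none was called with Sox11 K91A. Over all tested genes 5.81% were called higher and 4.81% lower in that comparison. List medians were -0.059 with Sox11 and -0.073 with Sox11 K91A. With Sox11, 0 rose and 2 fell, beside 9.96% higher and 10.2% lower over all tested genes, so the fallen share was near that of all genes. The genes that fell were Ppargc1a (log2 fold change -1.56, limma-voom adjusted p = 0.0367), the coactivator PGC-1α, and Esrra (-0.75, adjusted p = 0.0424), its nuclear receptor partner. With Sox11 K91A their values were -1.16 (adjusted p = 0.0904) and -0.62 (adjusted p = 0.0881). Hif1a, the oxygen-regulated subunit of the main hypoxia-inducible factor, had 221.9 and 193.2 CPM in control, 174.1 and 180.3 with Sox11, and 168.1 and 170.5 with Sox11 K91A. Its fold changes of -0.23 (adjusted p = 0.271) and -0.29 (adjusted p = 0.202) did not pass the test.

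Receptors of this family are typical of endothelium, so endothelial transcripts were read beside them. Among the 17 endothelial markers listed, the cadherin Cdh5, Emcn, Sox17 and Sox18 were the 4 with at most 3 counts in every library. Over all tested genes 10.2% were called lower and 9.96% higher with Sox11, and 4.81% and 5.81% with Sox11 K91A. Of 17 endothelial markers 9 were tested. With Sox11, 2 fell (Egfl7, log2 fold change -3.10, limma-voom adjusted p = 0.0179, and Plvap, -1.65, adjusted p = 0.0271). With Sox11 K91A, Egfl7 fell (-2.08, adjusted p = 0.0410) and 2 rose, Pecam1 (2.03, adjusted p = 0.0468) and the angiopoietin receptor Tek (3.14, adjusted p = 0.0305). Pecam1 had 14 and 15 counts in control and 72 and 43 with Sox11 K91A, and Tek had 4 and 4 against 43 and 30. The summed TPM of the 17 markers was 52.3 to 66.2 in control, 32.6 to 34.3 with Sox11 and 28.4 to 36.1 with Sox11 K91A, most of it from Ramp2 and Egfl7. The part of endothelial RNA in the levels of Kdr, Flt1 and Flt4 was not tested.

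**Figure D5:**
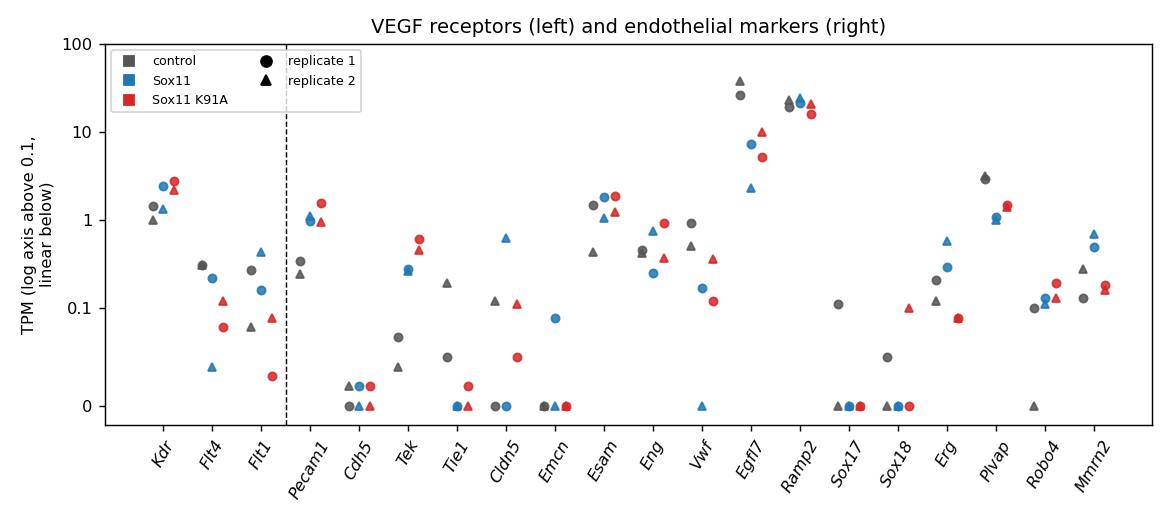
TPM of the 3 VEGF receptors (left of the dashed line) and of 17 endothelial markers in each library, on an axis that is logarithmic above 0.1 TPM and linear below. Cdh5, Emcn, Sox17 and Sox18 lie at or near 0, while Egfl7 and Ramp2 reach above 20 TPM in at least 1 control library.

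The purified cells carried RGC transcripts throughout, and some markers of several cell types changed in the comparisons where Vegfa and Vegfb fell. Most tested markers of each list were not called. List medians with Sox11 and Sox11 K91A were -0.27 and -0.24 for RGC and -0.30 and 0.024 for glial markers. For amacrine and horizontal cell genes they were 0.68 and 1.28. Over all tested genes, 10.2% were called lower and 9.96% higher with Sox11, and 4.81% lower and 5.81% higher with Sox11 K91A. Of 13 RGC markers, 5 fell with Sox11 (Nefh, Thy1, Nefm, Nefl and Slc17a6, log2 fold changes from -2.69 to -0.83) and 3 with Sox11 K91A (Nefh -2.31, Nefm -1.35 and Slc17a6 -0.85), and none rose. Their summed TPM was 14477 to 14644 in control, 8865 to 11489 with Sox11 and 10084 to 11751 with Sox11 K91A. The sum of 11 astrocyte and Müller glia markers was 83.7 to 90.6 TPM in control, 224.1 to 260.8 with Sox11 and 212.2 to 252.2 with Sox11 K91A. Most of that sum was glutamine synthetase, Glul, which rose (1.49 and 1.51), while S100b, at very low level, fell with Sox11 (-3.70). Their part in the result was not tested. Among 11 amacrine and horizontal cell genes Prox1 rose (2.85 and 2.73) and Slc6a9 fell (-2.13 and -1.75) with either virus. Their summed TPM was 138.0 and 45.9 in the 2 control libraries, 55.3 to 86.3 with Sox11 and 76.8 to 88.0 with Sox11 K91A, so the control libraries lay on both sides of the others. No gene was called among the 9 pericyte, 10 microglia, 10 photoreceptor and bipolar or 5 pigment epithelium genes. Of these, 5, 2, 3 and 1 could be tested, with sums of 7.11 to 16.8, 1.06 to 5.32, 0.92 to 2.13 and 0.43 to 1.96 TPM per library.

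Genes whose level followed that of a member most closely over the 6 libraries were found by the Pearson correlation of log2 CPM among 13378 genes, given as a description because the libraries fall into a few groups. For Vegfb they were the mitochondrial carrier gene Slc25a37, Slc8b1 and Dohh (r = 0.999 each), and 142 genes reached at least 0.99. For Vegfa they were Rhoq (0.999), Nptn (0.999) and 1700037H04Rik (0.998), with 63 genes at or above 0.99. For Kdr they were Tshr (0.994) and Trf (0.984), and for Flt4 Gm37844 (0.999), H2-DMa (0.996) and Rad18 (0.992). Closest to Vegfc were Zfp941 (0.99), Bbs12 (0.981) and Mcu (0.98), to Pgf Ankrd49 (0.984), Tprn (0.976) and Gm12758 (0.96), and to Flt1 Mzf1 (0.995), Sde2 (0.99) and Pard3b (0.976). For these 5 genes at most 4 genes reached 0.99.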

How the data were processed

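Gene expression was measured by RNA-seq in 6 libraries of cultured mouse RGCs, 2 each with control, Sox11 and Sox11 K91A AAV. The authors aligned reads to mouse mm10 with STAR and deposited RSEM expected counts per gene, which are not normalized, together with TPM values, which RSEM scales by transcript length and library. The versions and the use of strand are not given in the sources used here, and the submitters' processing notes name STAR, RSEM and limma. GENCODE M21 (GRCm38) supplied symbols for 98.0% of 43346 genes and their coordinates, and RefSeq (GRCm38.p6) the promoters.

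Expected counts were rounded to whole numbers, filtered with filterByExpr of edgeR (version 4.0.16) and scaled with TMM factors of 0.985 to 1.04, leaving 15747 genes. All 6 libraries entered 1 limma-voom fit (limma 3.58.1, R 4.3.3) with no covariate. The authors describe limma-voom, while the filter, the scaling and the shared fit were chosen here. Two-sided p-values were adjusted by Benjamini-Hochberg over all 15747 genes, and a gene was called at an adjusted p under 0.05 and a fold change over 1.2. CPM values are TMM-scaled. As alternatives DESeq2 (version 1.42.0) and the quasi-likelihood test of edgeR were run, besides weights for sample quality, other scaling and filters, limma-trend on log2(TPM + 1) and log2(TPM + 0.1), blocks, and leaving out libraries. The code was tested on simulated data.

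Named genes were the 7 members, the called or most abundant genes of each list, and up to 3 genes closest to each member, of which 1 is not reported here. The members and lists were chosen with earlier results of these data known. Promoters were searched on both strands. Depth limits precision most for Flt1, Flt4 and Pgf.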

Additional observations from a re-analysis of the deposited data

How the results depend on the processing

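Each result was recomputed under 22 alternatives (21 for Flt1 and Flt4, which had under 10 counts in some library). The direction of Vegfa and Vegfb against control held under all 22 in both comparisons. The call of Vegfa was lost in 4 alternatives with Sox11 and 5 with Sox11 K91A, and that of Vegfb in 1 and 2. With Sox11 and with Sox11 K91A, 1 member was called on either TPM scale. Fits without 1 library, or without both libraries low in Xist, leave at least 1 group with 1 library, so their calls carry little weight. With the replicate block, 2, 2 and 0 members were called in the 3 comparisons, with 2679, 1402 and 0 genes in all, and it ended no call of a member. The labels do not say what a replicate number shares, and the deviations of same-numbered libraries correlated by 0.231 (control and Sox11), -0.033 (control and Sox11 K91A) and -0.232 (Sox11 and Sox11 K91A), so the numbers were not read as pairs. A block with crossed numbers, chosen after seeing the data, called 4076, 2753 and 0 genes.

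Genes called with Sox11, 3171 in all, numbered 979 with sample quality weights, 1637 with only the 2 groups compared, 2107 on log2(TPM + 0.1), 1630 without the libraries low in Xist, and 0 (without Sox11 replicate 2) to 3742 when 1 library was left out. Genes called with Sox11 K91A, 1672 in all, numbered 3144 by DESeq2, 936 and 896 on the TPM scales, 3871 without the libraries low in Xist, 2894 with an Xist block and 0 (without control replicate 2 or Sox11 K91A replicate 1) to 2529 when 1 library was left out. On log2(TPM + 0.1) the split was 1287 higher and 820 lower with Sox11, and 579 and 317 with Sox11 K91A. Other settings called more genes with Sox11 than the main fit. DESeq2 called 2112 higher and 2220 lower, and the Xist block 2162 higher and 2400 lower. Between the Sox11 viruses DESeq2 called 2 genes and all other alternatives 0.

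Values that changed sign belonged to results that were not called in any setting. With Sox11, Flt1 was 0.011 with the replicate block, 0.14 and 0.52 on the TPM scales and -0.92 to 0.51 when 1 library was left out, and Vegfc was -0.56 to 0.048. Between the Sox11 viruses, leaving out 1 library gave -0.13 to 0.027 for Vegfa, -0.15 to 0.41 for Vegfb, -0.45 to 0.15 for Vegfc and -1.07 to 1.24 for Flt4. Without the libraries low in Xist, Vegfb was -0.16, Vegfc 0.15 and Flt4 -1.07. Flt4 was also -0.28 by edgeR, -0.30 by DESeq2, -0.033 with the replicate block, -0.033 with the crossed block, -0.034 and -0.089 on the TPM scales and -0.37 with the Xist block. The cause was not tested.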

Other observations

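The annotated protein-coding genes within 20000 bases of the members were read for their own changes, and other gene types were not read. Over all tested genes, 10.2% were called lower and 9.96% higher with Sox11, and 4.81% and 5.81% with Sox11 K91A. Near Vegfb, 7 genes were tested and 1 was called, Fkbp2, a peptidyl-prolyl isomerase of the endoplasmic reticulum that lies 1972 bases away. Fkbp2 had 39.6 and 53.2 CPM in control, 12.8 and 8.66 with Sox11, and 10.3 and 17.1 with Sox11 K91A, with log2 fold changes of -2.14 (limma-voom adjusted p = 0.0127) and -1.81 (adjusted p = 0.0208). Dnajc4, 260 bases from Vegfb on its other side, gave -0.28 (adjusted p = 0.427) and -0.36 (adjusted p = 0.358). Near Flt4, Cnot6, a subunit of the deadenylase complex, rose with both viruses (0.82 and 0.72), and near Pgf, Rps6kl1 fell with Sox11 (-0.61, limma-voom adjusted p = 0.0318) and gave -0.51 (adjusted p = 0.0680) with Sox11 K91A. No protein-coding neighbour within this distance was listed for Vegfa, Vegfc or Kdr.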
